A study of Mus musculus with 64 samples.

Results

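Insertions in Cbfb and in the Runx genes were described in transposon-induced mouse lymphomas and in control tails. The 4 members Cbfb, Runx1, Runx2 and Runx3 were found by the gene symbol that the deposited table gives each insertion, and they held 247 of the 299594 insertions kept here, in 4 of the 15715 genes hit in any sample. Cbfb accounted for 53 of these insertions, Runx1 for 97, Runx2 for 91 and Runx3 for 6. The gene family was chosen by the number of Cbfb insertions in the SB tumours and by the samples that held them, so the values of Cbfb in those tumours are given as a description and carry no test.

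The screen used 2 DNA transposon systems, PiggyBac (PB), which integrates at TTAA, and Sleeping Beauty (SB), which integrates at TA. Tumours were diffuse large B cell lymphomas, 30 from PB mice (genotype IMPB) and 11 from SB mice (genotype IMSB), and tail tissue of other mice of the same genotypes served as unselected control, with 12 PB tails and 11 SB tails. All groups shared the Blm m3/m3 genotype and an ITP transposon array (the SB mice ITP1-C or ITP2-M), and their background was a mix of C57BL/6, 129Sv and FVB. The transposase was a constitutive knock-in at Rosa26 (Rosa26PB or Rosa26SB), so transposition was not limited to B cells, and ages were not given in the sources used here. The authors diagnosed the lymphomas by histology and immunohistochemistry. The data used here come from genomic DNA only, so the lymphoma and tissue labels could not be set against marker genes. Each sample is named here by its group and a number within the group.

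Cbfb encodes the beta subunit of core binding factor, which does not bind DNA by itself but stabilises the DNA binding of the Runx proteins. Runx1, Runx2 and Runx3 encode the alternative alpha subunits, transcription factors that share the Runt domain: Runx1 is needed for blood stem cells and for early B and T cells, Runx2 for bone, and Runx3 for cytotoxic T cells and other lymphocytes. RUNX1 and CBFB are recurrent targets of translocation, inversion and mutation in human leukaemia, and the mouse Runx genes are classical sites of retroviral integration in lymphoma.

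The sites of the insertions that the results below turn on are shown from GRCm38 (mm10), 5′ to 3′ on the plus strand, with the target motif in capitals. The first group is the set of most covered insertions of Cbfb in SB tumour 3, the spleen tumour that held most of the Cbfb insertions, at chr8:105178210-105178239 and chr8:105175064-105175093 in intron 2 and at chr8:105191839-105191868 in intron 3.
Cbfb site with 2446 reads: tatatacaactttaTAttatgctttaaatt
Cbfb site with 854 reads: ttgttatttctattTAtttcatttattttt
Cbfb site with 456 reads: caaggacactcagcTAtatagcgagttagt

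The next 2 sites of Cbfb are the TA hit both in SB tumour 3 and in SB tail 11, at chr8:105173853-105173882, and the TTAA with the most reads in a PB tumour, at chr8:105175391-105175420, both in intron 2.
Cbfb site shared by tumour and tail: gatacatatatgcaTAtatgtttctaaata
Cbfb site in PB tumour 5: tatatacatttttTTAAaaagatttattta

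The last sites are the TTAA motifs of the Runx genes hit in the most samples, at chr16:92794780-92794809 in intron 2 of Runx1 (3 PB tumours) and at chr17:44710227-44710256 in intron 5 of Runx2 (4 PB tumours), and the TTAA of Runx1 intron 2 hit in PB tumour 3 and in PB tail 6, at chr16:92733254-92733283.
Runx1 site in 3 tumours: ggcaatttatttcTTAAatcacgtttttcc
Runx2 site in 4 tumours: cagcactgtttccTTAAagagagggggtga
Runx1 site shared by tumour and tail: aacaggcttccccTTAAacatagtaagggg

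Samples held between 756 and 10800 kept insertions, and the group medians were 4283 in PB tumours, 3547.5 in PB tails, 3835 in SB tumours and 4361 in SB tails. Total reads lay between 55502 and 369482 in 63 of the samples, and PB tumour 3, a spleen, stood apart with 5721832 reads. PB tumour 3 also held the most Runx1 insertions. Without it the PB tumours had 50 Runx1 insertions in 22 of 29 samples (1.72 ± 1.73, SD, n = 29), 20 sense and 30 antisense, and 26 of the 50 lay between the distal and the proximal start of the gene. No pair of samples shared more than 1.71% of the positions of the smaller one.

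Cbfb was hit in 15 of 30 PB tumours (50%, exact Clopper-Pearson 95% interval 31.3 to 68.7%) and in 1 of 12 PB tails (8.33%, 0.211 to 38.5%). It was hit in 5 of 11 SB tumours (45.5%, 16.7 to 76.6%) and in 1 of 11 SB tails (9.09%, 0.23 to 41.3%). Per sample, the PB tumours held between 0 and 2 Cbfb insertions (mean 0.6 ± 0.675, SD, n = 30), the SB tumours between 0 and 23 with a median of 0 (2.82 ± 6.78, SD, n = 11), and the tails of either system between 0 and 2. Apart from SB tumour 3, no sample had more than 3 insertions in Cbfb, and the ranges of tumours and tails overlapped in both systems, since most tails and many tumours had none.

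Runx1 and Runx2 were hit in most PB samples, tails included. Runx1 was hit in 23 of 30 PB tumours with 0 to 12 insertions and a median of 1 (2.07 ± 2.53, SD, n = 30), in 7 of 12 PB tails with 0 to 3 (0.917 ± 0.996, SD, n = 12), in 7 of 11 SB tumours with 0 to 4 (1.36 ± 1.36, SD, n = 11) and in 8 of 11 SB tails with 0 to 2 (0.818 ± 0.603, SD, n = 11). Runx2 was hit in 26 of 30 PB tumours with 0 to 9 insertions and a median of 2 (2.1 ± 1.88, SD, n = 30), in 9 of 12 PB tails with 0 to 2 (1.17 ± 0.835, SD, n = 12), and in 5 of 11 SB tumours and 5 of 11 SB tails with 0 to 2 in either (0.636 ± 0.809, SD, n = 11 each). The highest counts were in tumours, 12 for Runx1 in PB tumour 3 and 9 for Runx2 in PB tumour 17, a mesenteric mass, but every group of Runx1 and Runx2 also contained samples with none, so that the ranges overlapped.

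Runx3 was the least hit member. It had 1 insertion in each of 5 PB tumours, with 2 to 7 reads, and 1 insertion with 12 reads in SB tumour 10, a mesenteric lymph node. No tail had an insertion in Runx3: 0 of 48121 PB tail insertions allows up to 0.623 per 10000 insertions, and 0 of 50789 SB tail insertions up to 0.591, where the PB tumours had 0.319 and the SB tumours 0.228. A difference between tumours and tails in Runx3 was therefore not detectable at this depth.

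**Figure D1:**
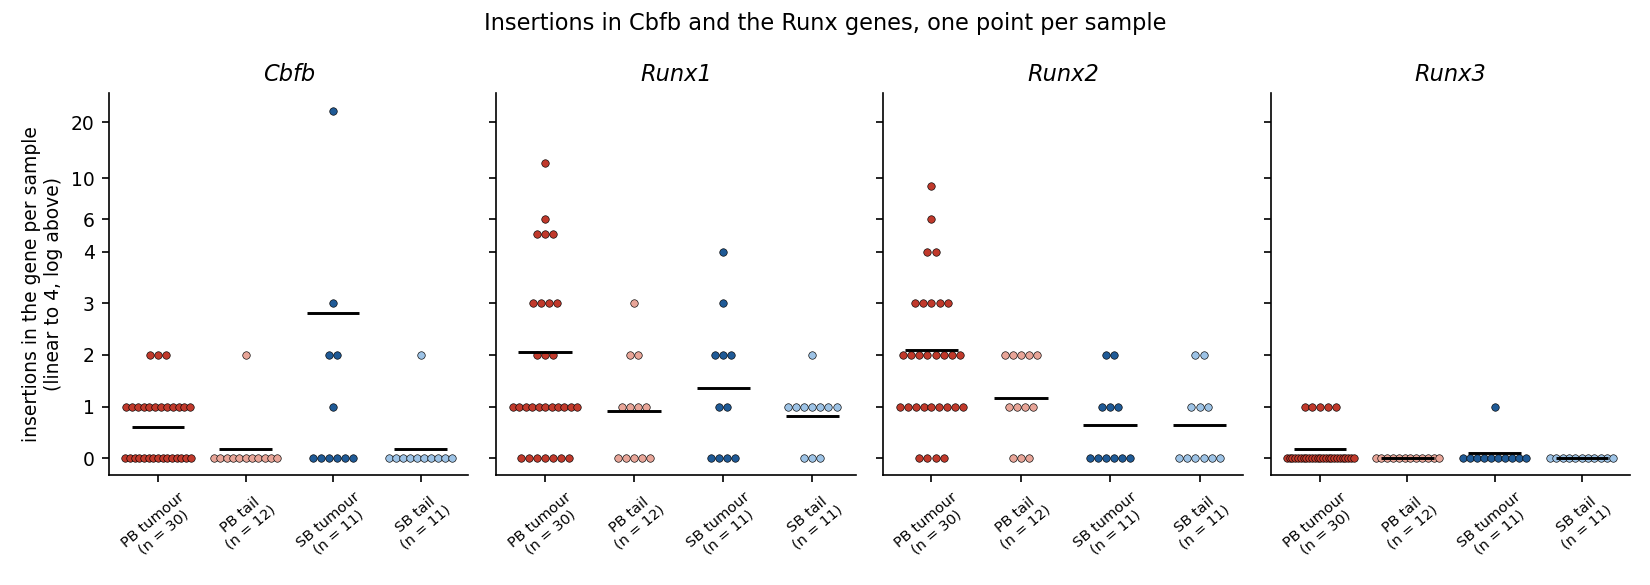
Insertions per sample (vertical axis, linear to 4 and logarithmic above) in the 4 genes, by group. Each point is 1 sample and the black line is the group mean. SB tumour 3 lies alone at 23 in Cbfb, and the points of tumours and tails overlap in all 4 genes.

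The insertions of Cbfb in the SB tumours were concentrated in a single spleen tumour. SB tumour 3 held 23 of the 31, where its 302 insertions on chromosome 8 and the share of TA sites in Cbfb gave 0.128 expected. In that tumour Cbfb ranked 1 by insertions among 1741 genes hit and 2 by reads, ahead of Lsamp with 9 insertions and Atxn1 with 8. Lsamp has 165190 TA sites and Cbfb 3306, so that the density was 0.0545 insertions per 1000 sites in Lsamp and 6.96 in Cbfb.

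The 23 insertions of SB tumour 3 lay between 3.193 and 37.79 kb from the start of the gene, a span of 34.597 kb that reached from intron 2 to intron 5. In the 50 kb on the lower side of the gene this tumour had 0 insertions and in the 50 kb on the upper side 1. Of the 23, 12 had the strand of the gene (sense) and 11 the opposite strand (antisense), as the strand column gives it. Which transposon end that column refers to is not given in the sources used here.

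Reads were spread unevenly over these insertions. Together they had 4611 reads, 3.52% of the reads of the tumour. The insertion with 2446 reads alone had 1.87% and ranked 2 of 4466 in the sample, and the 3 most covered held 81.5% of the Cbfb reads. Of the 23, 5 stood among the 100 most covered insertions of the tumour, 18 had under 100 reads, and their median of 29 reads compared with 22 for all insertions of the sample.

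The other 4 hit SB tumours showed another picture. SB tumour 5 (spleen) had 2 Cbfb insertions, SB tumour 6 (spleen) 3, SB tumour 8 (thymus) 1 and SB tumour 11 (mesenteric mass) 2. All 8 were antisense and lay from intron 3 on, between 8.218 and 43.672 kb from the start, with a median of 12.5 reads and at most 52. All 3 SB spleen tumours were hit, against 2 of the other 8 SB tumours. The spleens held 4466 to 6060 kept insertions and the SB tumours without a hit 760 to 4832, and a link to the organ was not tested. Without SB tumour 3 the SB tumours had 2.03 Cbfb insertions per 10000 insertions in place of 7.08, where the SB tails had 0.394, and both SB tail insertions were in SB tail 11.

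In the PB tumours no single sample dominated Cbfb. The 18 insertions came from 15 tumours, and PB tumours 6, 17 and 22 had 2 each. Hits were seen in 4 of 9 mesenteric masses, 4 of 6 mesenteric lymph nodes, 3 of 6 spleens, 2 of 5 nodes labelled LN, and the single tumours labelled CERV LN and LN THROAT. The reads per insertion ran from 2 to 167 with a median of 7, and the best placed insertion, in PB tumour 5, ranked 83 in its sample. The median share of insertions of the same sample with fewer reads was 44.4%.

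The strand of the PB insertions in Cbfb changed along the gene. All 5 insertions in exon 2 and intron 2, from 5 tumours and between 0.633 and 7.604 kb from the start, were sense. From there to the end of the gene 2 of 13 insertions were sense and 11 antisense. The 8 insertions of the SB tumours other than SB tumour 3 lay in the second stretch too, whereas SB tumour 3 had 3 sense and 5 antisense insertions in the first stretch and 9 sense and 6 antisense in the second. The stretches were set after the positions had been seen, and the difference was not tested.

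**Figure D2:**
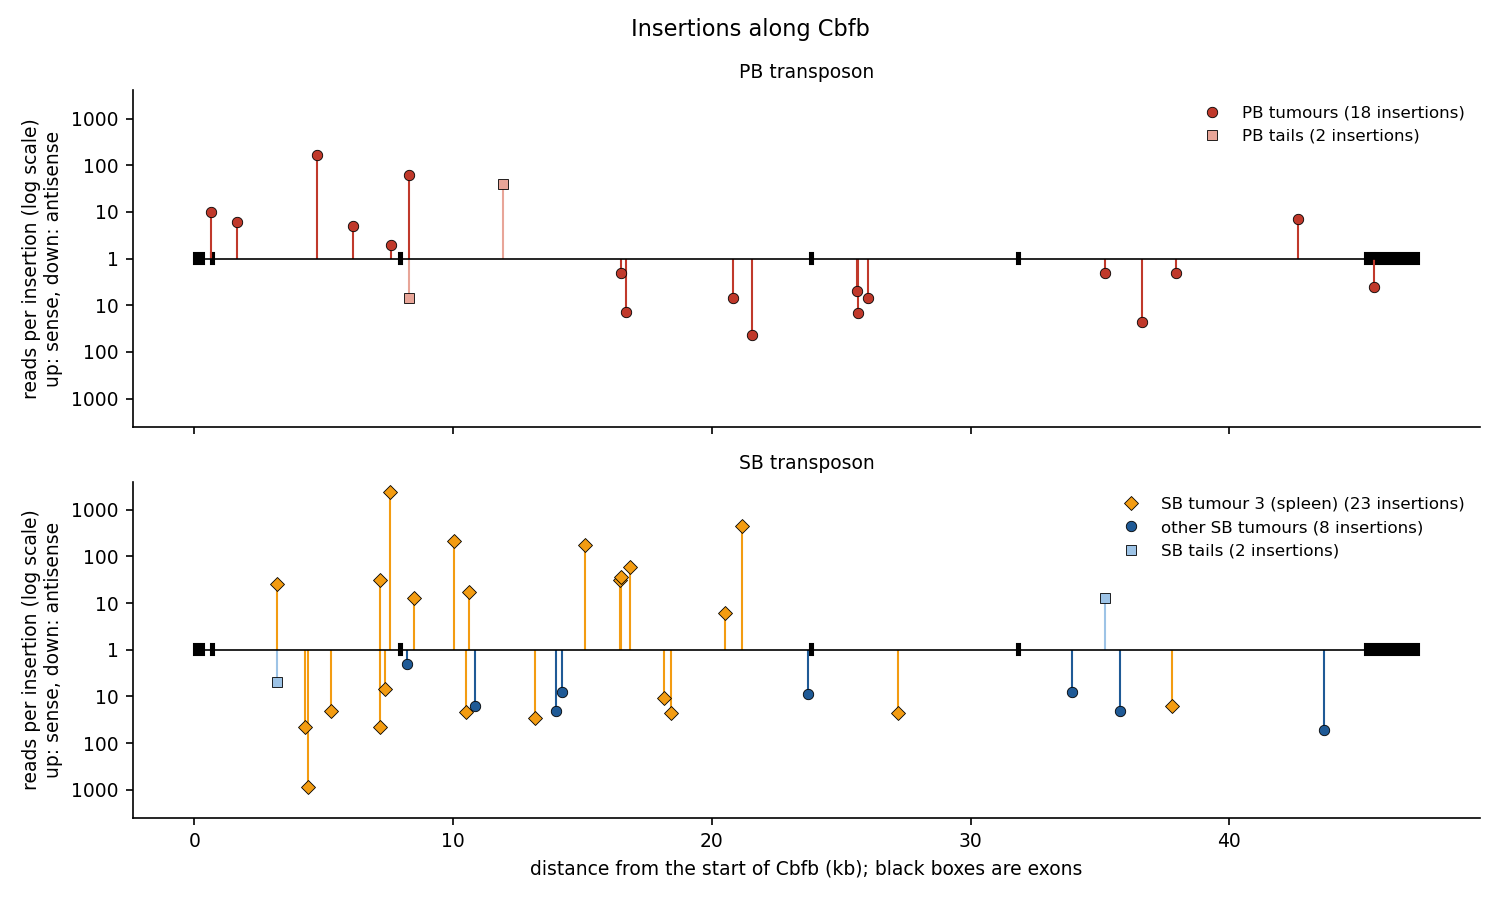
Insertions along Cbfb for PB samples (top) and SB samples (bottom): the horizontal axis is the distance from the gene start in kb, the vertical axis the reads per insertion on a log scale, upwards for sense and downwards for antisense insertions, and the black boxes on the line are exons. The 23 insertions of SB tumour 3 lie on both strands, most of them in introns 2 and 3, and the 8 of the other SB tumours all point down.

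Against the number of insertions that each chromosome total and the share of target sites of a gene would give, Cbfb, Runx1 and Runx2 were hit more often in the PB tumours. Cbfb had 18 insertions for 3.85 expected (4.67 times, counting interval 2.77 to 7.38), Runx1 62 for 11.6 (5.33 times, 4.09 to 6.84), Runx2 63 for 23.7 (2.65 times, 2.04 to 3.40) and Runx3 5 for 1.63 (3.06 times, 0.994 to 7.15). The intervals are exact Poisson intervals at the 95% level. Reads carry no molecular identifiers and insertions of 1 tumour are not independent, so the intervals and the limits for a count of 0 cover counting error only. In the one-sided Wald test of the Poisson rate with Bonferroni adjustment over 22555 genes, the adjusted p was 6.89e-07 for Cbfb, 1.25e-35 for Runx1, 1.06e-10 for Runx2 and 1 for Runx3. So 3 of the 4 members passed, where 4.97% of all genes did, and insertions inside genes were in total 1.39 times the number expected. The authors report that PB favours genes, transcription start sites and open chromatin, and SB much less so. Modelling such preferences lowered the number of genes they called in both systems. The expectation used here counts target sites only and models no such preference, for members and partner genes alike.

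Some of these calls depended on how insertions were counted. Counting the samples hit against the samples expected to be hit, in an exact Poisson binomial test chosen after seeing the data, gave 15 for 3.57 in Cbfb (adjusted p = 0.00457), 23 for 9.21 in Runx1 (adjusted p = 0.00164) and 26 for 15.4 in Runx2 (adjusted p = 0.42), so that Runx2 did not pass. With only insertions of at least 10 reads, Runx1 had 21 for 3.99 (adjusted p = 3.04e-10), Cbfb 7 for 1.4 (adjusted p = 0.236) and Runx2 22 for 8.54 (adjusted p = 0.102). Leaving out any 1 PB tumour kept the 3 calls, and without PB tumour 3 the ratio of Runx1 was 4.60 (adjusted p = 4.56e-23).

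In the SB tumours Cbfb had 31 insertions for 0.993 expected, 31.2 times, and 9.25 times without SB tumour 3. Runx1 had 15 for 3.09 (4.85 times, 2.72 to 8.0, adjusted p = 1.13e-05 over 23856 genes), Runx2 7 for 5.56 (1.26 times; adjusted p = 1) and Runx3 1 for 0.621 (adjusted p = 1). Of the 3 Runx genes, 1 passed the test, where 0.398% of all genes did. The call of Runx1 held when any 1 SB tumour was left out, and was lost when samples hit were counted (7 for 2.60 expected, exact Poisson binomial test, adjusted p = 1) or with at least 10 reads (8 for 1.82, adjusted p = 0.332).

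No member passed the same test in tails, where 1.25% of genes passed in PB tails and 0.18% in SB tails. The PB tails held 48121 insertions and the PB tumours 156875, so the same ratio gives a larger p in PB tails. The ratios of the Runx genes in tails were still above 1 in several cases. In PB tails Runx1 had 11 insertions for 3.6 expected (3.06 times, 1.53 to 5.47; unadjusted p = 1.05e-04, adjusted p = 1) and Runx2 14 for 6.85 (2.05 times, 1.12 to 3.43; unadjusted p = 0.00372, adjusted p = 1). Cbfb had 2 for 1.29 in PB tails and 2 for 1.22 in SB tails, and in SB tails Runx1 had 9 for 4.43 and Runx2 7 for 6.75. The counting intervals of tumours and tails overlapped for Runx1 and Runx2 in both systems and for Cbfb in PB, as the plot of observed over expected insertions shows.

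**Figure D3:**
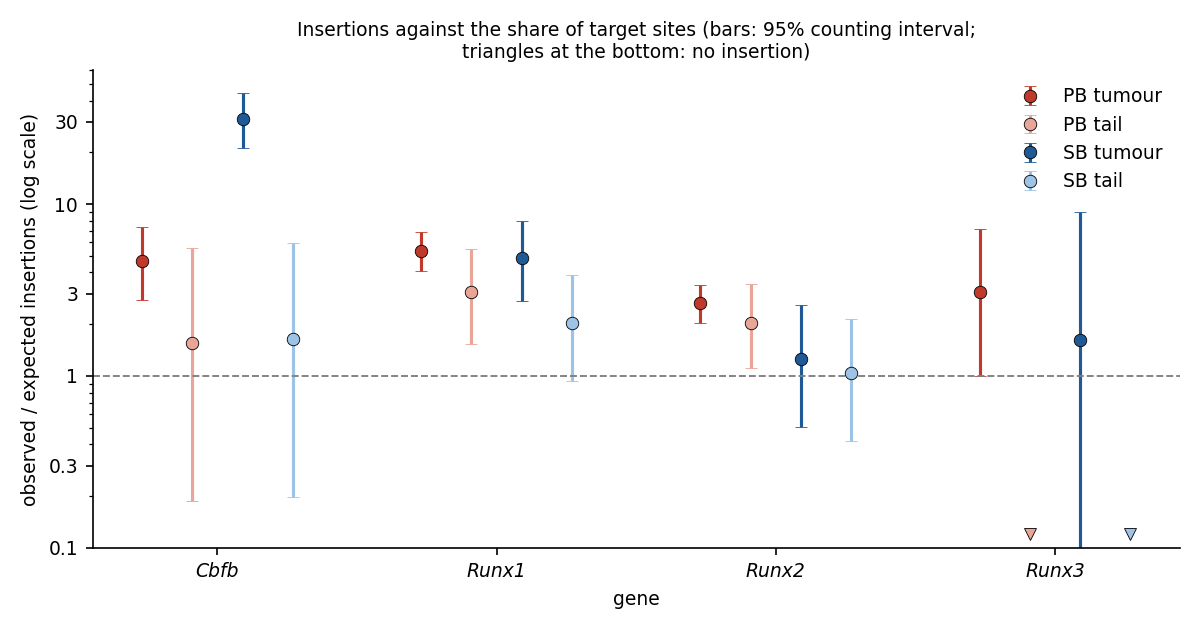
Observed over expected insertions (log axis) for each gene and group, with 95% exact Poisson intervals. The dashed line is a ratio of 1, triangles mark groups with no insertion and the lower end of the Runx3 bar of SB tumours lies below the axis. Cbfb in SB tumours stands at 31.2, and the PB tumour ratios of Cbfb, Runx1 and Runx2 lie between 2.65 and 5.33.

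Tumours were also compared with tails directly. In PB samples Cbfb had 1.15 insertions per 10000 in tumours and 0.416 in tails, Runx1 3.95 and 2.29, and Runx2 4.02 and 2.91. Without PB tumour 3 the rate of Runx1 in tumours was 3.42. In edgeR's quasi-likelihood test over 3305 genes, the log2 fold change of tumours over tails was 1.07 ± 1.06 (SE) for Cbfb (Benjamini-Hochberg adjusted p = 0.414), 0.72 ± 0.53 for Runx1 (adjusted p = 0.428, and 0.56 without PB tumour 3) and 0.45 ± 0.49 for Runx2 (adjusted p = 0.631). None of these 3 members passed, where 4.45% of genes passed in either direction and 2.15% as higher in tumours. Runx3 had too few insertions to enter. The 95% intervals of the log2 fold changes, from -0.996 to 3.14 for Cbfb, -0.33 to 1.77 for Runx1 and -0.51 to 1.4 for Runx2, leave room for both no difference and a several-fold one.

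PB tail 2 decided the value of Cbfb in this comparison, because it held both tail insertions. Without it no PB tail had an insertion in Cbfb, the adjusted p was 0.0753 and no fold is given. By presence alone, 15 of 30 tumours against 1 of 12 tails, Fisher's exact test gave p = 0.0150 and an adjusted p of 0.310 over the 3305 genes. The names of the samples are written in 2 forms, joined in 22 PB tumours and 5 PB tails and separated in 8 and 7, and the values moved with the form. Within the joined names the log2 fold changes were 0.40 for Cbfb, 0.87 for Runx1 and 0.90 for Runx2. Within the separated names they were -0.057 for Runx1 and -0.44 for Runx2. Cbfb had too few insertions there to enter, with 1 each in PB tumours 28 and 30 and none in the tails. What the form stands for is not given in the sources used here, and its part in the result was not tested.

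In SB samples Runx1 had 3.42 insertions per 10000 in tumours and 1.77 in tails, and Runx2 1.60 and 1.38. The log2 fold change was 0.80 ± 0.69 (SE) for Runx1 (95% interval -0.55 to 2.15; edgeR adjusted p = 0.737) and 0.17 ± 0.82 for Runx2 (-1.43 to 1.77; adjusted p = 0.936). Neither passed, where 0.801% of 1124 genes passed in either direction and 0.623% as higher in tumours. The log2 fold change of Cbfb, given as a description, was 3.43 ± 1.11 and fell to 1.73 without SB tumour 3. All 11 SB tumours had joined names, while 7 SB tails had joined and 4 separated names. The separated ones, SB tails 8 to 11, had 267354 to 369482 reads, and the joined SB tails at most 106452. SB tail 11, with both Cbfb insertions of the SB tails, is among the separated ones. The part of the name form in these values was not tested.

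The contrasts of the 2 systems did not differ detectably for the Runx genes. The PB minus SB difference of the log2 fold changes was -0.10 ± 0.87 (SE) for Runx1 (95% interval -1.80 to 1.60) and 0.28 ± 0.97 for Runx2 (-1.62 to 2.18), with an edgeR adjusted p of 0.9998 for both, and for Cbfb, as a description, -2.41 ± 1.54. In this test 0 of 4292 genes passed (0%), 395 had an unadjusted p under 0.05, and the intervals are wide enough to hold differences of several fold.

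Within Runx1 the share of insertions between its starts was similar in PB tumours and PB tails but not in the few SB insertions. Runx1 (chr16:92601466-92826074, minus strand) has a distal and a proximal start, and the stretch between them holds 55.7% of its TTAA sites and 57.1% of its TA sites. In the PB tumours 29 of 62 insertions (46.8%) lay between the starts and in the PB tails 5 of 11 (45.5%). In the SB tumours it was 12 of 15 (80.0%), from 7 tumours, and in the SB tails 2 of 9 (22.2%). The SB tumour insertions between the starts had an order of strands: 7 sense insertions from 5 tumours lay 1.221 to 43.313 kb from the distal start, and 5 antisense insertions from 4 tumours lay 53.457 to 124.816 kb from it. These counts were not tested.

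PB insertions of Runx2 lay mostly after its proximal start. Runx2 (chr17:44495987-44814797, minus strand) has 32.5% of its TTAA sites between its starts, and 8 of 63 PB tumour insertions (12.7%) and 4 of 14 PB tail insertions (28.6%) lay there. Intron 5 held 22 of the 63 from 18 tumours, with 18.1% of the sites, and intron 7 held 16 from 11 tumours, with 9.72% of the sites. The annotated gene runs on past the end of the transcript used. That stretch holds 25.6% of the TTAA sites and 3 of the 63 PB tumour insertions, and 30.1% of the TA sites and 3 of the 7 SB tumour insertions. It is included in the ratios to expectation and in the densities of Runx2. Both strands were used, 27 sense and 36 antisense in the PB tumours, as in Runx1 with 24 and 38.

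**Figure D4:**
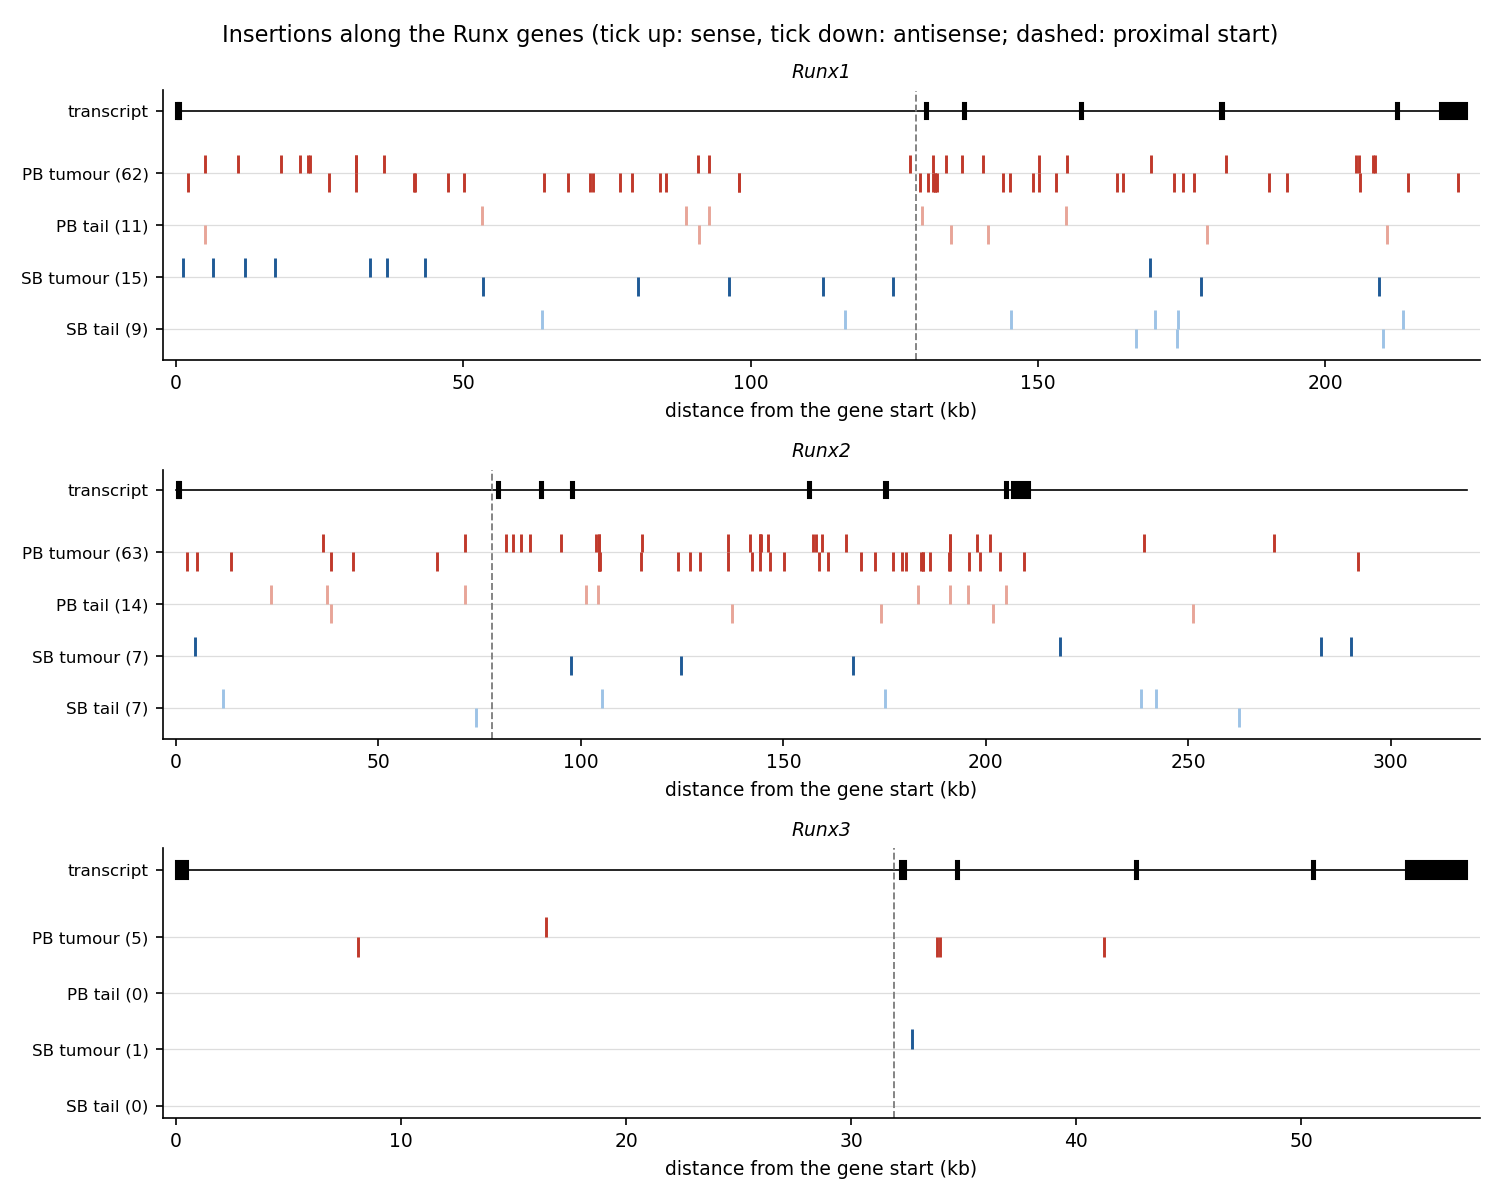
Positions of insertions along Runx1, Runx2 and Runx3 (distance from the distal gene start in kb), with 1 row per group, ticks up for sense and down for antisense, the transcript with its exons on top and a dashed line at the proximal start. In Runx1, 12 of the 15 SB tumour insertions lie left of the dashed line, and in Runx2, 55 of the 63 PB tumour insertions lie right of it.

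Insertions in Runx1 and Runx2 had few reads in number, but in tumours they were not poorly covered for their samples. The median share of insertions of the same sample with fewer reads was 46.8% for Runx1 and 49.0% for Runx2 in PB tumours. For SB tumours it was 46.5% for Runx1 and 80.8% for the 7 insertions of Runx2. These shares were not tested. In the PB tumours the median was 5.5 reads for Runx1 and 6 for Runx2, and none of these insertions was among the 100 most covered of its sample. As a share of the reads of the sample, the highest were 0.0511% for Runx1 in PB tumour 5 (71 reads, rank 158) and 0.069% for Runx2 in PB tumour 19 (57 reads, rank 153). In the SB tumours the medians were 13 and 18 reads, and 1 Runx1 insertion with 59 reads and 0.0552%, at rank 73, was among the 100 most covered. The highest shares in tails were of the same order, 0.0786% in PB and 0.0479% in SB for Runx1, and 0.0955% in PB and 0.0924% in SB for Runx2.

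The stretch beside the genes was less hit than Cbfb and Runx1 themselves in the PB tumours, which was not tested. Per 1000 TTAA sites and sample, Cbfb had 1.59 insertions and its 50 kb flanks 0.349 and 0.38, and Runx1 had 2.23 and its flanks 0.538 and 0.286. Without PB tumour 3 the density of Runx1 was 1.86. Runx2 had 1.10, its lower flank 1.11 and its upper flank 0.755. The Runx2 value covers the whole annotated gene. The stretch past the transcript used, with 25.6% of the TTAA sites and 3 of 63 PB tumour insertions, lowers it. In the PB tails Runx1 had 0.988 and its flanks 1.34 and 0.358. In the SB tumours the density per 1000 TA sites was 0.852 in Cbfb, where its flanks had 0.0358 and 0.0356, and 0.131 in Runx1. Without SB tumour 3 it was 0.242 in Cbfb, with 0.0394 and 0 in the flanks.

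**Figure D5:**
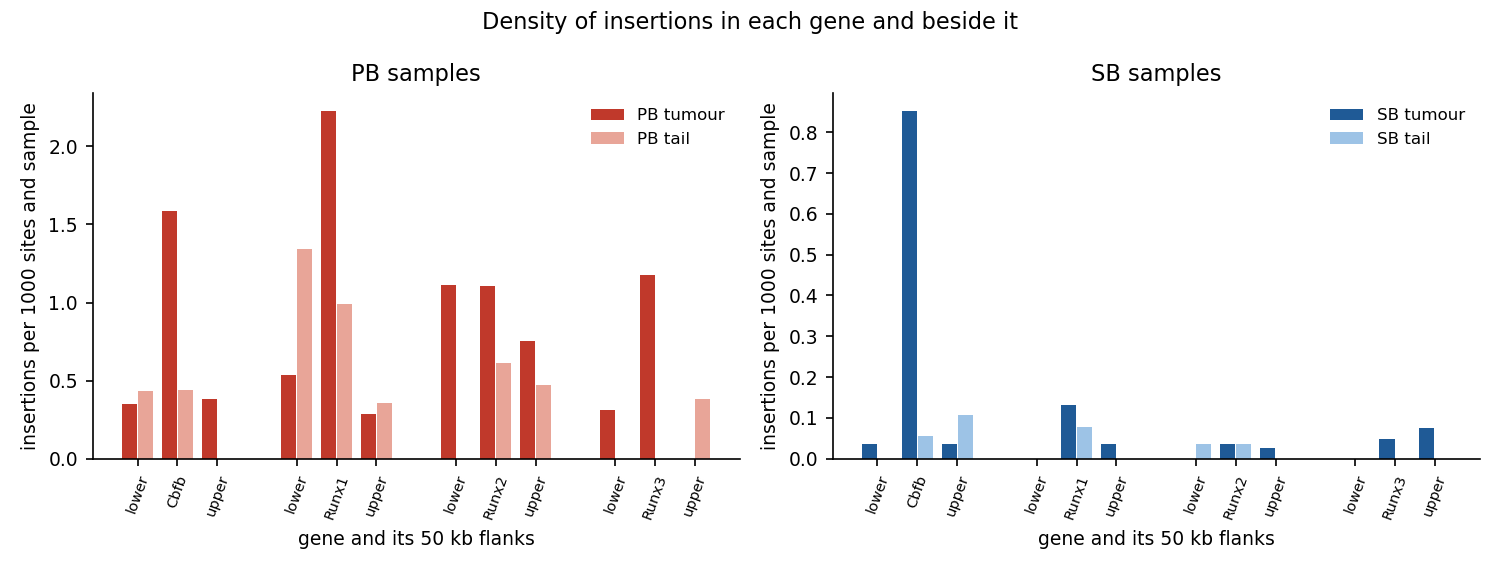
Insertions per 1000 target sites and sample (vertical axis from 0) in each gene and in the 50 kb on its lower-coordinate and upper-coordinate side, for PB samples (left) and SB samples (right), tumours dark and tails light. Cbfb rises above both flanks in tumours of both systems (0.852 in SB tumours, 0.242 without SB tumour 3). Runx2 in PB tumours, taken over the whole annotated gene with the stretch past the transcript used (1.10), does not exceed its lower flank (1.11).

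Exact positions were shared by few samples. Of the 66 positions hit in Runx1 in PB samples 6 were hit in more than 1 sample, as were 6 of 69 in Runx2, 0 of 20 in Cbfb and 1 of 32 in Cbfb in SB samples. The TTAA of Runx2 shown above was hit in PB tumours 6, 7, 9 and 18 with 17, 4, 4 and 9 reads, 2 times on each strand. The TTAA of Runx1 in 3 tumours had 25, 5 and 18 reads in PB tumours 5, 9 and 25. Of the 13 shared positions 5 were shared by a tumour and a tail, among them the Runx1 TTAA with 381 reads in PB tumour 3 and 101 in PB tail 6 on the same strand, and the Cbfb TA with 26 reads in SB tumour 3 and 5 in SB tail 11 on opposite strands.

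Most tumours and most tails carried an insertion in at least 1 of the 4 genes. A PB tumour held 0 to 15 insertions in the members together (median 4), a PB tail 0 to 5 (median 2), an SB tumour 0 to 24 (median 3) and an SB tail 0 to 5 (median 1). All 15 PB tumours with a Cbfb insertion also had 1 in a Runx gene, but 28 of all 30 PB tumours had a Runx insertion, as had 10 of 12 PB tails. In SB, 4 of the 5 tumours with a Cbfb insertion and 9 of all 11 had a Runx insertion, as had 10 of 11 SB tails. Whether the insertions of 1 tumour lay in the same cells cannot be told from these data.

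Partner genes of core binding factor were examined with a list of 39 genes in 4 roles. The list was drawn up with earlier results of these data known, so its counts and medians are a description and the list was not tested. Of the 36 that could be tested, 6 were hit above expectation in the PB tumours by the Wald test with Bonferroni adjustment: the co-repressors Tle4 and Cbfa2t3 (2 of 13), the co-activator Crebbp (1 of 5) and the partner factors Ets1, Fli1 and Lmo2 (3 of 11), with 0 of 7 target genes. In this test 4.97% of all genes passed. The median ratio of the 36 was 2.49, and 25 of them lay above 1. Over all 22555 genes the median was 0.759, and all insertions in genes together were 1.39 times the number expected. The partner genes were not matched to all genes by number of target sites, and genes with few sites often have no insertion. Crebbp, a histone acetyltransferase, had 58 insertions in 22 PB tumours for 11.2 expected (5.20 times; adjusted p = 4.38e-32), and Ets1, which binds DNA cooperatively with Runx1, 44 in 17 for 7.54 (5.83 times; adjusted p = 1.44e-27). These counts cover the RefSeq gene from start to end. By the deposited gene symbol Ets1 had 31 insertions in 14 PB tumours. Tle4, a Groucho co-repressor that Runx proteins recruit, had 53 in 21 for 16.9 (3.13 times; adjusted p = 1.12e-12).

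The remaining calls rested on fewer insertions. The ETS factor Fli1 had 23 in 14 PB tumours for 6.62 (3.47 times; adjusted p = 2.62e-05). Cbfa2t3, a relative of the RUNX1 fusion partner Runx1t1, had 9 in 6 for 1.34 (6.74 times; adjusted p = 1.17e-04), and Lmo2, a bridging factor of blood transcription complexes, 8 in 8 for 1.33 (6.01 times; adjusted p = 0.00438). The call of Cbfa2t3 was lost without PB tumour 5, 6 or 18, and that of Lmo2 without PB tumour 3, 4, 15, 18, 20, 25, 27 or 30. Cbfa2t3 and Lmo2 also did not pass the exact Poisson test (adjusted p = 0.254 and 1), Lmo2 not with 10 kb upstream added (adjusted p = 0.114), and Tle4 and Fli1 not with at least 10 reads (adjusted p = 1 each). By samples hit, Crebbp alone passed of the 6 (22 for 8.92 expected, exact Poisson binomial test, adjusted p = 0.00704).

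In the SB tumours Crebbp was the 1 partner gene called (13 insertions in 8 tumours for 2.52 expected, 5.15 times, adjusted p = 4.03e-05, where 0.398% of all genes passed). This call was lost without SB tumour 11, with the exact Poisson test, by samples hit and with at least 10 reads. No partner gene was called in tails of either system. Against tails, 0 of 15 partner genes tested in PB and 0 of 6 in SB passed edgeR's test in either direction, where 4.45% and 0.801% of all genes did. The median log2 fold change was 0.41 in PB, where that of all genes was 0.20, and -0.01 in SB, where it was 0.01. Crebbp had 3.70 insertions per 10000 in PB tumours and 1.25 in PB tails (log2 fold change 1.41 ± 0.68, SE; edgeR adjusted p = 0.1), and 2.97 and 0.985 in SB (1.35 ± 0.82; adjusted p = 0.503).

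Genes whose insertions followed those of the members over the 30 PB tumours were taken from the genes hit in at least 10 of them. For Cbfb the highest Spearman correlations of insertions per 1000 insertions were with Thsd7a (0.69), A830018L16Rik (0.63) and Prkch, a protein kinase C isoform (0.59), among 2014 genes. For Runx1 they were with Supt20 (0.55), the class IIa histone deacetylase gene Hdac4 (0.50) and Rab31 (0.49), and for Runx2 with Phf3 (0.61), Fnbp1l (0.58) and the phosphatase gene Ptpn12 (0.55), among 2015 genes each. The points share the tumours and their depth, many of them are 0, and the coefficients are the highest of many, so they are given as a description with no test.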

How the data were processed

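Insertions were mapped by QiSeq, that is splinkerette PCR of sheared genomic DNA and 75 bp paired-end MiSeq sequencing, in 64 samples of as many mice. Per the file headers, the deposited table gives each insertion a position on GRCm38 (mm10), a strand, a gene and a read count, which the authors did not normalize; insertion caller and read filters are not given in the sources used here. All 385883 lines had at least 2 reads. The other value column of the deposited table, a ratio in which the authors set the coverage of an insertion relative to others of its sample, was not used (1 column).

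Positions were moved to the nearest TTAA or TA within 5 bp and counted once per sample. The sex chromosomes and the donor chromosome 14 were left out, and 2 lines of Runx2 had no motif in reach. For the test against expectation, genes ran from start to end of the RefSeq annotation (GRCm38.p6). Expected counts were the chromosome total times the share of motif sites of the gene, tested with a one-sided Wald test, Bonferroni adjustment and hits in at least 3 samples and 5% of samples. Tumours and tails were compared with edgeR 4.0.16 (glmQLFit and glmQLFTest) on insertions per sample and gene, with the total of kept insertions as library size, at least 10 insertions over the samples and Benjamini-Hochberg adjustment. Standard errors came from the fitted means and dispersions. DESeq2 1.42.0, Fisher's exact test and the other alternatives are compared in the closing section. Scripts were tested on simulated data. The members and the partner list were chosen with earlier results of these data known. Genes were named by rule: the 4 members, partner genes that were called, and for each member hit in at least 10 PB tumours the 3 most correlated genes more than 1 Mb away; Lsamp and Atxn1 were added after their values were seen. Samples carry no replicate numbers in their labels and were numbered in accession order. The alternatives by samples hit, by separated names and by the first number in the name were chosen after seeing the data.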

Additional observations from a re-analysis of the deposited data

How the results depend on the processing

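The labels give no replicate numbers, but sample names of tumours and tails share a first number whose meaning is not given. Across genes, the deviations of tumours and tails with the same number from their group means had correlations near 0. They ran from -0.0254 to 0.0159 over 6 numbers in PB and from -0.0169 to 0.072 over 4 in SB. Few insertions per gene pull such correlations towards 0, so they cannot decide whether these samples deviated together. With that number as a replicate block (chosen after seeing the data), 78 genes were called in PB in place of 147, 9 in SB and 0 in the difference, no member was called, and the log2 fold change of Runx2 was -0.159 in PB, -0.108 in SB and -0.0406 in the difference. Leaving out 1 sample at a time never changed the number of members called: 0 in PB tumours against PB tails, in SB tumours against SB tails, in the difference of these contrasts and in tails against expectation, 3 in PB tumours and 1 in SB tumours against expectation. Over the same fits, the genes called ranged from 118 to 163 in PB and from 8 to 13 in SB against tails, and were 0 in the difference; partner genes called ranged from 0 to 1 in PB against tails and from 5 to 9 in PB tumours and 0 to 1 in SB tumours against expectation, and were 0 in the other comparisons.

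Against expectation, counting at most 1 insertion per sample lowers the observed but not the expected number, so that often hit genes cannot pass and the counts by presence below are lower by construction. They were 1 member in PB tumours and 0 in SB tumours. Samples hit against samples expected to be hit (chosen after seeing the data) gave 2 members in PB tumours (Cbfb and Runx1) and 0 in SB tumours, with 288 genes called in PB tumours, 4 in SB tumours, 21 in PB tails and 4 in SB tails, and 1 partner gene in PB tumours and 0 in SB tumours. A minimum of 10 reads left 1 (Runx1) and 0. Benjamini-Hochberg adjustment added Runx3 in PB tumours and 1 member, Runx1, in PB tails. All genes called in PB tumours were 646 with the exact Poisson test, 428 by presence, 479 with 10 reads and 2850 with Benjamini-Hochberg adjustment, against 1121. In SB tumours they were 32 by the exact test, 12 by presence and 307 with Benjamini-Hochberg adjustment, against 95. In PB tails they were 83, 86 and 880 under the same settings, against 282, and in SB tails 13, 9 and 167, against 43. Partner genes called in PB tumours were 1 by presence and 18 with Benjamini-Hochberg adjustment, against 6; in SB tumours they were 0 by the exact test, by presence and with 10 reads, against 1; in PB tails they were 2 with Benjamini-Hochberg adjustment, against 0.

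Against PB tails, 147 genes were called, and 71 without a minimum of insertions, 33 with joined names, 28 with separated names (chosen after seeing the data), 86 with DESeq2 and 7 by presence; 1 partner gene was called with RefSeq gene bodies and 1 with joined names. Against SB tails, 9 genes were called, and 2 with DESeq2 and 1 by presence. In the difference, 1 gene was called without a minimum of insertions and 1 with 10 reads, against 0.

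Some values changed direction. The log2 fold change against PB tails was -0.0567 for Runx1 and -0.44 for Runx2 with separated names. Against SB tails, Runx2 gave -0.0282 with TMM factors, -0.0845 with DESeq2 and a log2 odds ratio of 0 by presence, where Runx1 gave -0.54; without 1 sample Runx2 ranged from -0.11 to 0.454. In the difference, Runx1 gave 0.26 with TMM factors and 0.0589 with joined names and ranged from -0.26 to 0.12 without 1 sample, and Runx2 gave -0.42 with 10 reads and ranged from -0.0153 to 0.552. By samples hit the ratio of Cbfb was 0.824 in PB tails and 0.869 in SB tails. Ratios under 1 were also given by presence, by construction lower, for Cbfb in PB tails (0.773) and SB tails (0.816) and for Runx2 in SB tails (0.741) and SB tumours (0.899). They were under 1 as well for Runx2 in SB tails with 10 reads (0.843) or 10 kb upstream added (0.995), and for Runx3 in PB tumours with 10 reads (0). Without 1 sample the ratio of Cbfb ranged from 0 (without PB tail 2) to 1.81 in PB tails and from 0 (without SB tail 11) to 1.94 in SB tails, that of Runx2 in SB tails from 0.804 to 1.22 and that of Runx3 in SB tumours from 0 (without SB tumour 10) to 2.04. The cause was not tested. Few insertions per gene, with at most 2 in the tails for Cbfb and 0 for Runx3, limit every contrast with tails.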

Other observations

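In the 50 kb beside Runx2, on its lower-coordinate side, the PB tumours had 7 of their 156875 insertions, in 5 of 30 samples. The 12 PB tails had 0 of 48121, which allows up to 0.623 per 10000 insertions, and the difference was not tested. On the other side the PB tumours had 8 in 7 samples and the PB tails 2 in 2. Beside Runx3, on the upper-coordinate side, SB tumours had 2 insertions in 2 samples where the gene itself had 1. Of the PB tumour insertions 2 of 18 in Cbfb, 1 of 62 in Runx1 and 1 of 63 in Runx2 lay in an exon of the transcript used. Of the 54 insertions of SB tumours none did. Exons also hold few target sites. The last exon, the one with the most, holds 7.67% of the TTAA sites in Cbfb, 3.34% in Runx1 and 1.63% in Runx2. Of the TA sites it holds 5.11%, 2.46% and 1.29%. Whether exons were hit less than their share was not tested.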
